A study of Tupaia belangeri with 2 samples.

Results

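The 9 genes described here encode the collagens COL1A1, COL1A2, COL3A1 and COL6A3, the small leucine-rich proteoglycans LUM, PGS2 and OGN, the matrix protein POSTN and the collagen-processing protein PCOLCE. They were chosen by name, and each name belongs to 1 gene model of the tree shrew annotation, so that all 9 were found among 18543 gene names. PGS2 is the protein-database name of decorin. RNA of single cells was counted in 2 embryos of the tree shrew (Tupaia belangeri), a small mammal close to primates, at 4 to 5 postconceptional weeks. Each whole brain gave 1 droplet library of the 10x 3′ kit (v3 chemistry). Both embryos were untreated, no genotype or strain is given, and no other condition was compared. Dura mater and blood vessels had been taken off the brains before papain digestion, so fibroblasts and vascular cells are those that this step left behind.

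Fibril-forming collagens are secreted as procollagens, trimmed outside the cell and assembled into the fibres that give connective tissue its strength. Small leucine-rich proteoglycans bind these fibrils and set their width and spacing. In the developing brain such a matrix is made mainly by fibroblasts of the meninges and around blood vessels, while neurons and glia lie in a matrix poor in fibrillar collagen.

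Total counts of unique molecular identifiers (UMIs, each marking 1 captured transcript) were 41868023 and 38077767 in the embryos. The 17735 barcodes with at least 200 gene models detected were analysed as cells, 8408 of embryo 1 and 9327 of embryo 2, with a median of 3539 and 3169 UMIs. Barcode sequences present in both libraries numbered 18, with 0 among fibroblast-like, mural-like or endothelial-like cells. Cells were clustered without the 9 genes and without other matrix genes. A cluster was called after a cell type, as in fibroblast-like, only from other marker genes. Levels are in CPM, the UMIs of a gene per 1000000 UMIs of all genes in the cells of a class. Values are given for embryos 1 and 2 in that order, and errors are the SD between them (n = 2). Each UMI counts a molecule whatever its length, but how well the 3′ end of each gene was captured is unknown, so a level is best compared across cell classes and not across genes.

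Fibroblast-like cells numbered 101, 53 in embryo 1 and 48 in embryo 2, or 0.572% ± 0.0818 of all cells. Of 14 fibroblast markers measured, 12 were detected in them, at a summed level of 832 and 608 CPM, and their clusters were named from FOXC1, PRRX1, ALDH1A2, CRABP2, PDGFRA and OSR1 among others. SLC47A1 and TCF21 were at 0. FOXC1, ALDH1A2 and CRABP2 are known from meningeal fibroblasts, but meningeal and perivascular fibroblasts cannot be told apart here. Mural-like cells (pericyte or smooth muscle type) numbered 27 and endothelial-like cells 67. The mural-like cluster was named from PDGFRB, RGS5, KCNJ8, ABCC9 and NOTCH3 among others, and 11 of 16 mural markers were detected in it. ACTA (accepted for ACTA2), MYH11, CNN1, NDUFA4L2 and ATP13A5 were at 0. The mural-like cells also carried dividing-cell markers at 7508 and 10478 CPM, against 214 and 281 CPM in fibroblast-like cells, and 14 of the 27 had a UMI of MKI67, which marks cycling cells. The dividing-cell list was left out when these few cells were named, a choice made after their cluster had been seen.

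Of all UMIs of the 9 genes, 74.0% lay in the 101 fibroblast-like cells, 11.1% in mural-like, 2.13% in endothelial-like, 4.38% in radial glia-like and 3.19% in neuron-like cells. The summed level was 11611 and 10208 CPM in fibroblast-like cells, 5729 and 7367 CPM in mural-like cells and 401 and 384 CPM in endothelial-like cells. It was 36.4 and 38.7 CPM in radial glia-like cells and 14.3 and 8.86 CPM over the 4 neuron classes. The sum thus fell stepwise from fibroblast-like to mural-like, endothelial-like, radial glia-like and neuron-like cells in both embryos, with no overlap between neighbours in this order.

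**Figure D1:**
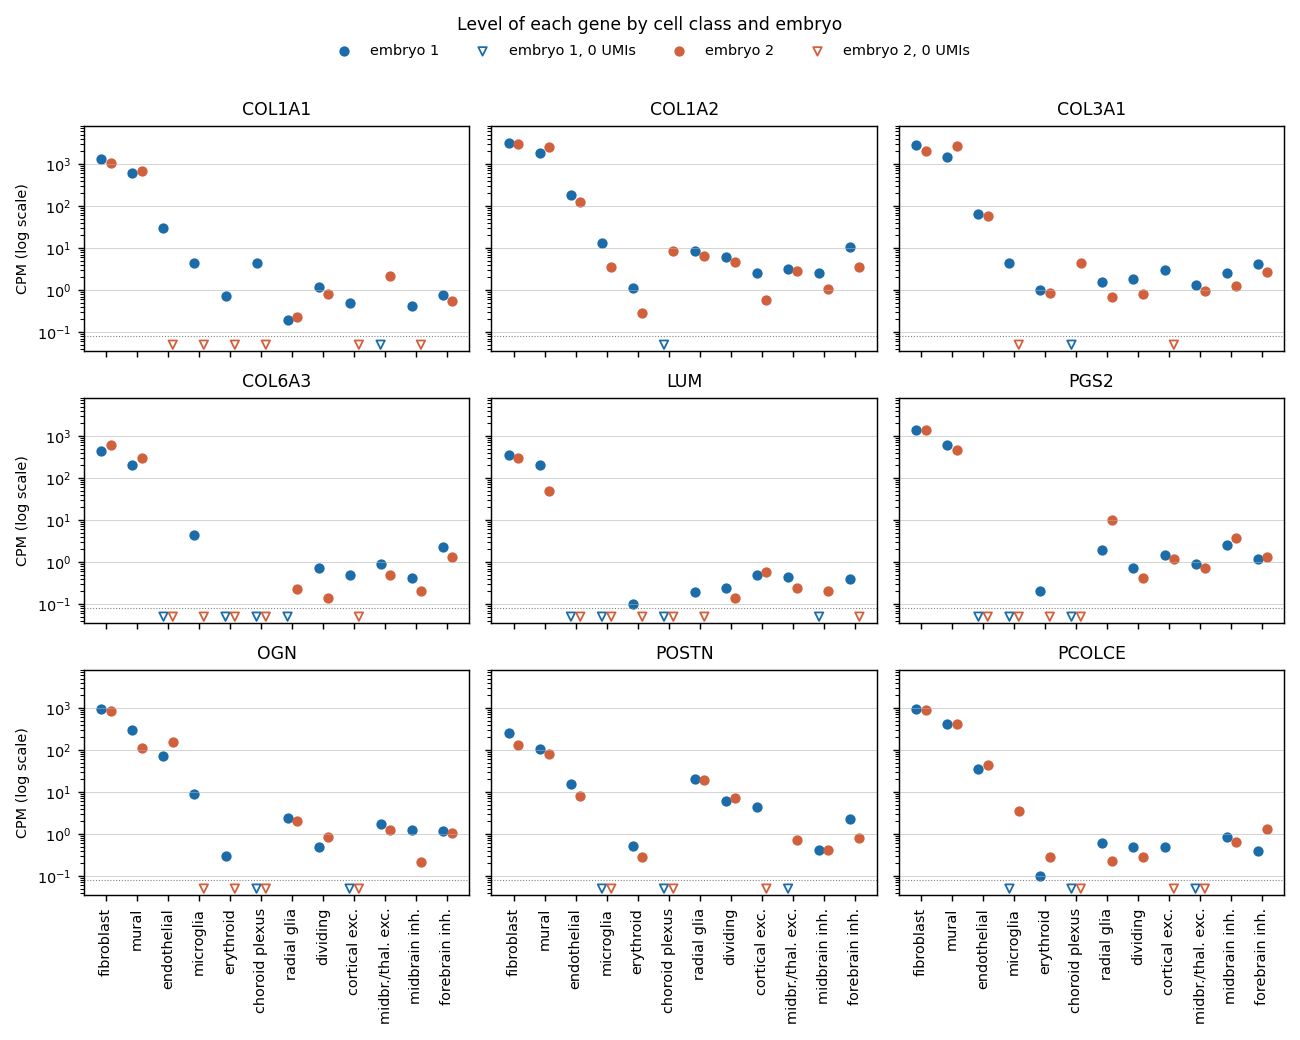
Level of each of the 9 genes in CPM (log axis) in 12 cell classes, with 1 filled point per embryo. Open triangles under the dotted line mark 0 UMIs. Fibroblast-like and mural-like cells stand above the other classes, except that endothelial-like cells overlap mural-like cells in OGN, and POSTN has a second group of higher values in radial glia-like and dividing cell-like cells.

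COL1A1 and COL1A2 encode the chains of type I collagen, the main fibrillar collagen of connective tissue. COL1A1 had 1337 and 1062 CPM in fibroblast-like cells, 598 and 677 CPM in mural-like cells, and 30.5 CPM and 0 UMIs in endothelial-like cells. COL1A2 had 3101 and 2939.7 CPM in fibroblast-like, 1832 and 2595 CPM in mural-like, and 183 and 123 CPM in endothelial-like cells. For both genes the embryos' values in fibroblast-like cells lay above those in mural-like cells, and these above those in endothelial-like cells. In radial glia-like cells COL1A1 was almost absent, with 0.198 and 0.225 CPM from 2 UMIs, whereas COL1A2 had 8.71 and 6.53 CPM from 73 UMIs in 42 of 2107 cells.

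Pooled over both embryos, the share of COL1A1 among the UMIs of both type I chains was lower in endothelial-like and radial glia-like than in fibroblast-like cells. It was 28.5% in fibroblast-like cells (663 of 2325 UMIs, exact 95% binomial interval 26.7 to 30.4%) and 22.6% in mural-like cells (18.5 to 27.0%), and these intervals overlapped. It was 8.33% in endothelial-like cells (6 of 72 UMIs, 3.12 to 17.3%) and 2.67% in radial glia-like cells (2 of 75 UMIs, 0.325 to 9.30%). All 6 endothelial-like UMIs of COL1A1 came from embryo 1. The erythroid-like cells, which should lack both chains, had 7 UMIs of COL1A1 among 19, a share of 36.8% (16.3 to 61.6%) that includes the fibroblast-like value. These 7 UMIs too came from embryo 1 alone. These intervals, like all intervals and count limits here, cover counting error only and not the differences between animals.

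COL3A1 encodes type III collagen, which forms thin fibrils in vessel walls and soft connective tissue. It had 2808 and 2078 CPM in fibroblast-like cells and 1481 and 2660 CPM in mural-like cells, so that these classes overlapped, the only such case among the 9 genes. Endothelial-like cells had 66.0 and 57.2 CPM, and the highest neural value was 4.25 CPM, in forebrain inhibitory neuron-like cells of embryo 1. A single mural-like cell of embryo 2 held 111 of the 279 COL3A1 UMIs and 109 of the 302 COL1A2 UMIs of its class. This cell had 9064 UMIs, 4 UMIs of fibroblast markers, 13 of MKI67 and 0 of RGS5, ABCC9 or KCNJ8. It also held 27 of 88 COL1A1, 17 of 35 COL6A3, 19 of 75 PGS2 and 17 of 57 PCOLCE UMIs of the class. Of LUM it held 2 of 19 UMIs, of OGN 1 of 30 and of POSTN 0 of 13.

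COL6A3 encodes a chain of type VI collagen, which forms beaded microfibrils around cells. It was the only 1 of the 9 genes with its higher fibroblast-like value in embryo 2, with 442 CPM in embryo 1 and 612 CPM in embryo 2. Mural-like cells had 208 and 306 CPM. In embryo 2 these UMIs came from 2 cells, and the cell described for COL3A1 held 17 of them. Endothelial-like cells had 0 UMIs in 67 cells, which allows a share of cells with a UMI of up to 4.48%. Set against 3 counts over both libraries of that class, COL6A3 was at least 76.9-fold higher in fibroblast-like cells.

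LUM (lumican), PGS2 (decorin) and OGN (osteoglycin, also mimecan) are small leucine-rich proteoglycans that bind collagen fibrils. PGS2 had 1419 and 1351 CPM in fibroblast-like cells, against 598 and 467 CPM in mural-like cells. LUM had 352 and 300.1 CPM in fibroblast-like cells, and its mural-like values of 208 and 48.4 CPM lay far apart, from 16 and 3 UMIs. Neither gene had a UMI in endothelial-like cells, so that PGS2 was at least 204-fold and LUM at least 48.3-fold higher in fibroblast-like cells, again against 3 counts over both libraries.

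OGN differed from the other proteoglycans in endothelial-like cells. It had 960.1 and 835 CPM in fibroblast-like cells, 299 and 113 CPM in mural-like cells and 71.1 and 151 CPM in endothelial-like cells, so that the mural-like and endothelial-like values overlapped. Its 51 endothelial-like UMIs came from 20 cells, 6 of embryo 1 and 14 of embryo 2. All 20 belonged to 1 of the 2 endothelial-like clusters, that of 39 cells led by PCDH12, FLT1 and VWF, and the other cluster, of 28 cells with a median of 1154.5 UMIs against 7673 UMIs, had 0.

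POSTN encodes periostin, a secreted protein that binds collagen and integrins. It had 256 and 131 CPM in fibroblast-like cells and 104 and 80.6 CPM in mural-like cells. Radial glia-like cells came next, with 20.8 and 18.9 CPM, above endothelial-like cells with 15.2 and 8.17 CPM. Only 23.2% of the POSTN UMIs lay in fibroblast-like cells, while 40.6% lay in radial glia-like and 22.2% in dividing cell-like cells. For the other 8 genes the share in fibroblast-like cells was between 71.7% (COL1A2) and 84.9% (LUM).

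PCOLCE encodes an enhancer of the proteinase that cuts the C-terminal propeptide off fibrillar procollagens. It had 936 and 900.4 CPM in fibroblast-like cells, 403 and 419 CPM in mural-like cells and 35.5 and 44.9 CPM in endothelial-like cells. No neural class exceeded 1.34 CPM.

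Within the 101 fibroblast-like cells, 8 genes were spread broadly and POSTN was not. COL1A2 was detected in 98 cells, COL3A1 in 95, COL1A1 in 93, PGS2 in 91, OGN in 87, PCOLCE in 82, COL6A3 in 73 and LUM in 65. POSTN was detected in 21 cells, 10 of embryo 1 and 11 of embryo 2, or 20.8% (13.4 to 30.0%, exact 95% binomial interval). LUM, the next lowest in level, had 180 UMIs in 65 cells, whereas POSTN had 108 UMIs in 21. The 5 cells highest in POSTN held 70.4% of its UMIs, against 25.6% for LUM and 13.2% for COL1A2. A single cell held 29 of the 108 POSTN UMIs.

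**Figure D2:**
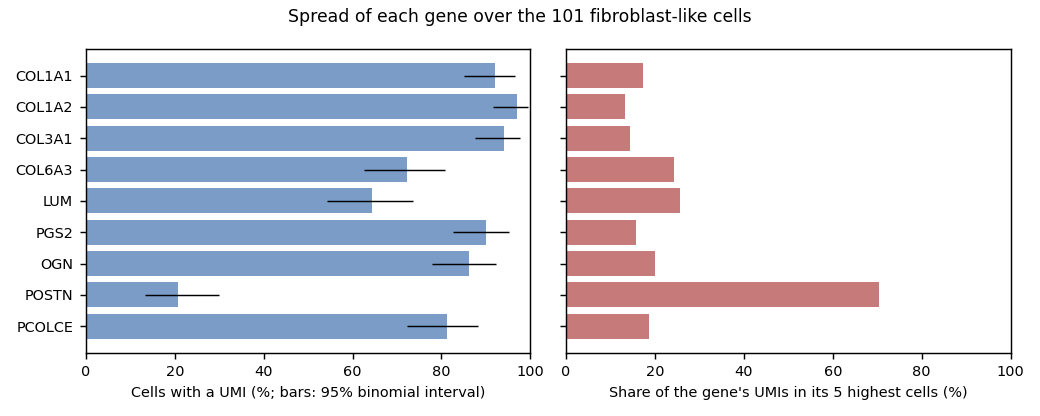
Left, share of the 101 fibroblast-like cells with at least 1 UMI of each gene, with exact 95% binomial intervals as black lines. Right, share of the UMIs of each gene held by its 5 highest cells. POSTN stands apart on both sides, with 20.8% of the cells and 70.4% of the UMIs.

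The median fibroblast-like cell had UMIs of 8 of the 9 genes, 12 cells had all 9, and 92 had at least 4. Such counts rise with depth, so each cell was also thinned to 1000 UMIs, which left 90 fibroblast-like cells. COL1A2 was then detected in 88.9% of them, COL3A1 in 83.3%, LUM in 24.4% and POSTN in 12.2%. Erythroid-like cells, with a median of 10784 UMIs against 5254 UMIs in fibroblast-like cells, served as the background. In them COL1A2 was detected in 0.853% and POSTN in 0.426% of the cells, but haemoglobin RNA made up 84.4% of their UMIs, so thinned shares in them are low by construction and are not compared.

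Across single fibroblast-like cells the levels of COL1A2 and COL3A1 ran together most closely (Pearson r = 0.664 over 101 cells, 0.665 and 0.679 within the embryos). The pair of type I chains had r = 0.440, and COL1A1 and PGS2 had 0.515. Pairs with POSTN lay between -0.0364 and 0.154. These cells come from 2 libraries and share their depth, and the values are given as a description.

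The fibroblast-like cells formed 2 clusters, although the 9 genes had no part in the clustering. The cluster of 44 cells, led by CPZ, C1QTNF7, LUM and ADAMTS12, had a summed level of 13038 and 11333 CPM, and that of 57 cells, led by PRG4, LCN2, EFEMP1 and CLDN11, had 8866 and 9489.5 CPM. LUM had 409 and 424 CPM in the first and 242 and 221 CPM in the second, a ratio of 1.69 in embryo 1 and 1.92 in embryo 2. The ratios of COL6A3 were 1.56 and 1.80, those of COL3A1 1.72 and 1.41, those of COL1A1 1.82 and 1.17 and those of PCOLCE 1.44 and 1.39. The order of the genes thus differed between the embryos. OGN (1.12 and 0.626) and POSTN (1.15 and 0.406) went in opposite directions in the embryos. Median depths were 6541.5 and 3575 UMIs per cell. The comparison of clusters is a description and was not tested.

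**Figure D3:**
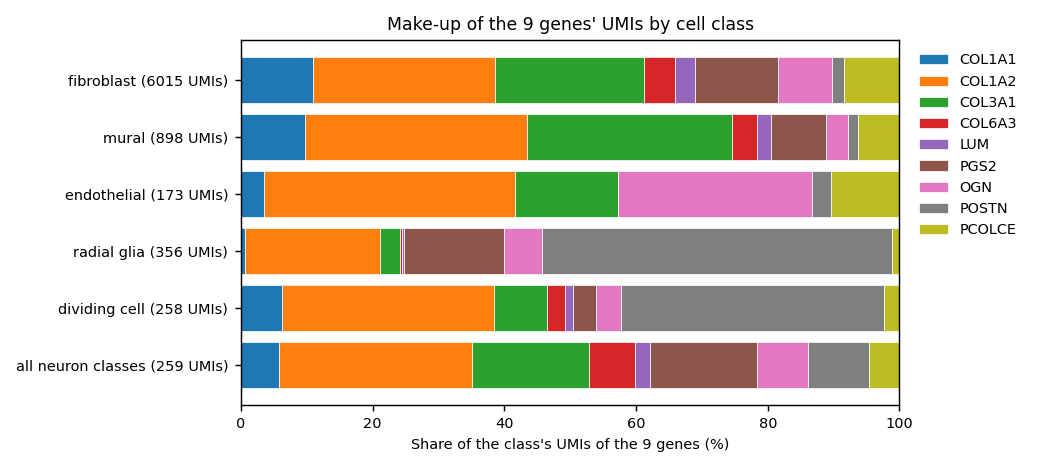
Share of each gene among the UMIs of the 9 genes in 6 groups of cells, with the number of UMIs behind each bar. COL1A2 and COL3A1 make up 27.6% and 22.5% in fibroblast-like cells, OGN 29.5% in endothelial-like cells and POSTN 53.1% in radial glia-like cells.

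The comparisons between classes were tested on UMIs summed per embryo and class with edgeR's quasi-likelihood test, with embryo as a block and p-values adjusted by the Benjamini-Hochberg method over 10003 genes. A gene was called at an adjusted p under 0.05. The embryos are the only replicates, and all 12 named classes share 1 estimate of the spread. Fold changes are on the log2 scale, relative to normalization factors set from abundant genes. Their standard error (SE) is the size of the fold change divided by the square root of the F statistic of its test. Where classes were averaged, the fit averaged them on the log2 scale. Its log2 differences thus need not match ratios of mean CPM, in which a low class weighs less.

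Against the mean of the mural-like and endothelial-like classes, all 9 genes had higher values in fibroblast-like cells, where 9.27% of all genes were called, 5.07% higher and 4.20% lower. The genes had been proposed for their fibroblast pattern, so nothing is read from this count. The fitted log2 differences of the 6 genes detected in both vascular classes ran from 2.44 (COL1A2) to 3.73 (COL1A1). Over the mean CPM of both vascular classes, COL1A2 was 2.55-fold and COL1A1 3.68-fold higher. Measured against mural-like cells alone, COL3A1 was 1.90-fold higher in embryo 1 and 0.781-fold as high in embryo 2, so its direction turned between the embryos. COL1A2 was 1.69-fold and 1.13-fold higher, and OGN 3.21-fold and 7.40-fold higher. In embryo 2, 1 mural-like cell with fibroblast markers and no UMI of RGS5, ABCC9 or KCNJ8 held 111 COL3A1 and 109 COL1A2 UMIs. The 24 mural-like cells without PDGFRA, OSR1, CRABP2 or ALDH1A2 had COL3A1 at 1118 CPM and COL1A2 at 1430 CPM over both embryos. They also held 44 UMIs of PGS2 and 11 of LUM. Of the 101 fibroblast-like cells, 38 lacked the same markers, at a median of 2528 UMIs against 2410.5 UMIs in these 24 cells. Lack of the markers thus does not set a cell apart from fibroblast-like cells. Measured against endothelial-like cells alone, OGN was 13.5-fold and 5.53-fold higher, POSTN 16.8-fold and 16.0-fold, and COL1A2 17.0-fold and 24.0-fold. COL1A1 was 43.9-fold higher in embryo 1 and at least 86.7-fold higher in embryo 2, where the endothelial-like library had 0 UMIs and was set at 3 counts.

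Mural-like cells exceeded the mean of the 6 neural classes (radial glia-like, dividing cell-like and 4 neuron classes) in all 9 genes, whereas 11.6% of all genes were called higher and 2.79% lower. The 9 genes were chosen with earlier results of these data known. This count and those of the 9 in the comparisons below are therefore a description. COL3A1 rose by 10.41 ± 0.231 on the log2 scale (adjusted p = 4.03e-81, edgeR) and COL1A1 by 10.36 ± 0.389 (2.39e-53), a gap within their errors. Without either embryo the value of COL3A1 lay between 9.39 and 12.08 and that of COL1A1 between 10.57 and 11.27. POSTN rose least, by 5.47 ± 0.722 (1.81e-10). Its neural mean in CPM, 5.71 and 4.65, was the highest of the 9, and its mural-like level was 17.8 times that mean. In each gene both embryos' mural-like values lay above every neural class.

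**Figure D4:**
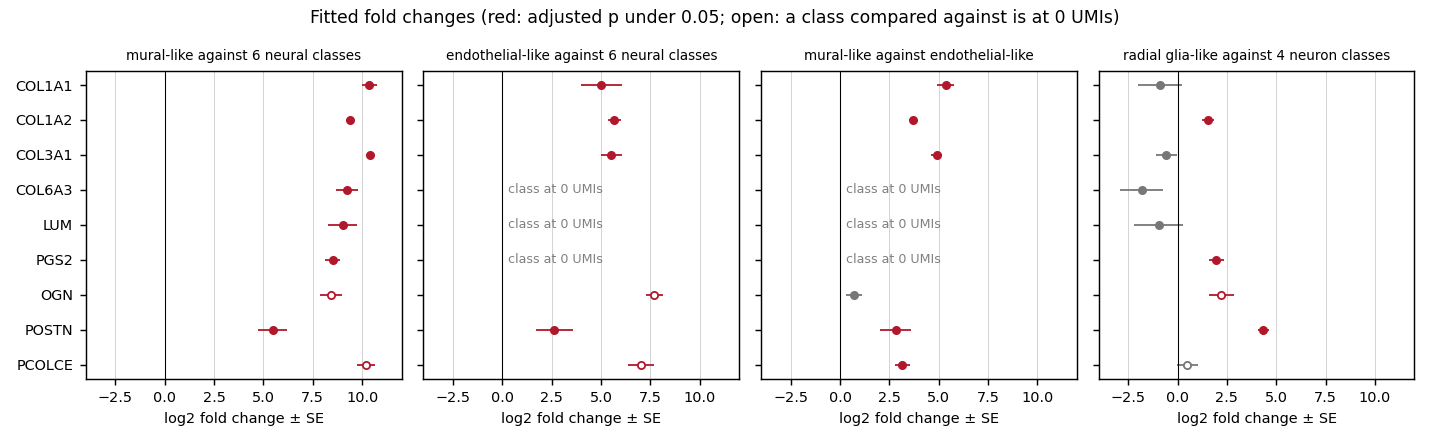
Log2 fold change with its SE for each gene in 4 comparisons, from the edgeR fit over 24 libraries of summed UMIs. Red points passed an adjusted p of 0.05 and grey points did not, open points rest on classes of which 1 was at 0 UMIs, and where the endothelial-like class had 0 UMIs no value is drawn. All 9 genes lie right of 0 in mural-like cells, and POSTN is the highest of the 9 in radial glia-like cells.

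The mural-like level depended on which cells were counted. Of the 27 cells, 17 had a UMI of the pericyte markers RGS5, ABCC9 or KCNJ8, and none of these 17 had a UMI of the fibroblast markers PDGFRA, OSR1, CRABP2 or ALDH1A2. The 17 cells had 76 UMIs of COL1A2, 53 of COL3A1 and 11 of COL1A1, but 1 of COL6A3 and 0 of LUM and PGS2. All 75 PGS2 and 19 LUM UMIs of the class came from the other 10 cells. The 3 mural-like cells with a fibroblast marker held 146 of the 302 COL1A2, 157 of the 279 COL3A1 and 31 of the 75 PGS2 UMIs. The pericyte-marked cells had COL1A2 at 1491 CPM and COL3A1 at 1040.1 CPM over both embryos. Their median depth was 2297 UMIs, against 9884 UMIs in the other 10 cells. In them 1 UMI, as counted for COL6A3, made 19.6 CPM, and 3 UMIs, as counted for POSTN, made 58.9 CPM. By the limit of 3 counts, 0 UMIs thus bound a level to 58.9 CPM over both embryos. LUM in the whole class lay above this in embryo 1 (208 CPM) and under it in embryo 2 (48.4 CPM).

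When the pericyte-marked cells alone stood for the class, a split made after the data were seen, the class had 8 and 9 cells, under the minimum of 10 per embryo set for the other fits. COL6A3 lost its call against neural cells (log2 difference 5.45 ± 2.46, adjusted p = 0.219, edgeR), and LUM and PGS2 had no mural-like UMI left. The summed level of the 9 genes was then 3186 CPM, and 4091 CPM when the 3 cells with fibroblast markers were left out. The whole class carried the fibroblast marker list at 494 and 145 CPM, with 7 of 14 markers at 0, against 832 and 608 CPM in fibroblast-like cells. Their part in the mural-like levels beyond these counts was not tested.

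**Figure D5:**
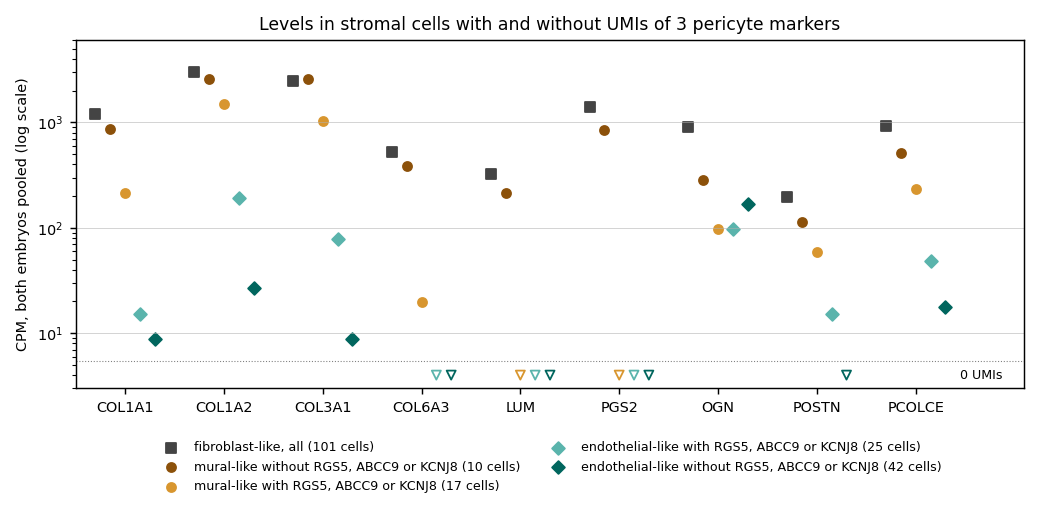
Pooled level in CPM (log axis) of the 9 genes in fibroblast-like cells and in mural-like and endothelial-like cells with and without a UMI of RGS5, ABCC9 or KCNJ8. Triangles mark 0 UMIs. LUM and PGS2 are at 0 in the 17 pericyte-marked mural-like cells, and OGN alone is higher in the 42 unmarked than in the 25 marked endothelial-like cells.

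In endothelial-like cells 6 of the 9 genes were called higher than the mean of the neural classes, where 16.4% of all genes were called higher and 10.0% lower. In CPM, OGN stood at 108 times the neural mean, 60.5 times in embryo 1 and 169.6 times in embryo 2 (adjusted p = 2.1e-34, edgeR). PCOLCE stood at 91.7 times the neural mean CPM (3.89e-18). In the fit, COL1A2 rose by 5.67 ± 0.344 on the log2 scale (1.72e-32) and COL3A1 by 5.52 ± 0.534 (2.16e-17). COL1A1 rose by 5.01 ± 1.03 (2.84e-05), from 6 UMIs in 4 cells of embryo 1 alone. POSTN, with 5 UMIs in 3 cells, rose by 2.64 ± 0.932 (0.0236). That call was lost without the embryo block (0.0510), without cells that carry haemoglobin (0.0521) and with cells chosen by markers (0.0517). COL6A3, LUM and PGS2 had 0 endothelial-like UMIs and were not called. Haemoglobin RNA made up 6.76% of the UMIs of this class, against 0.677% in fibroblast-like and 0.156% in mural-like cells.

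These endothelial-like calls also moved with pericyte markers. The class carried the mural marker list at 797 and 588 CPM, with 13 of 16 markers detected, against 1650 and 1886 CPM in mural-like cells. In turn, mural-like cells carried the endothelial marker list at 182 and 1112 CPM, with 13 of 17 markers detected. Endothelial-like cells had that list at 3010 and 3553 CPM. The 25 endothelial-like cells with RGS5, ABCC9 or KCNJ8, of median depth 11284 UMIs, held 63 of the 66 COL1A2 UMIs, 26 of the 27 COL3A1 UMIs and all 5 of POSTN. The other 42 cells, of median depth 1296.5 UMIs, held 3 of COL1A2 and 1 of COL3A1. With those 42 cells alone, the number of all genes called fell from 2641 to 935, and 2 of the 9 genes were called, OGN and PCOLCE, while COL1A2 (log2 difference 3.06 ± 1.28), COL3A1 (2.62 ± 2.15) and COL1A1 (4.30 ± 2.28) were not (adjusted p between 0.140 and 0.623, edgeR). OGN was the exception, with 19 of its 51 UMIs in the unmarked cells and a level of 168 CPM there against 97.3 CPM in the marked ones, but all 19 came from embryo 2, and the PCOLCE call rested on 2 UMIs in 1 cell. No endothelial-like cell had a UMI of PDGFRA, OSR1, CRABP2 or ALDH1A2. The class still carried the whole fibroblast marker list at 178 and 106 CPM, with 3 of 14 markers detected.

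Mural-like cells exceeded endothelial-like cells in 8 of the 9 genes, where 5.80% of all genes were called, 3.75% higher and 2.05% lower. COL1A1 rose by 5.35 ± 0.449 on the log2 scale (adjusted p = 4.88e-20, edgeR), COL3A1 by 4.89 ± 0.265 (8.95e-36), COL1A2 by 3.69 ± 0.197 (3.14e-36), PCOLCE by 3.17 ± 0.382 (1.88e-11) and POSTN by 2.83 ± 0.788 (0.0115). COL6A3, LUM and PGS2, at 0 in endothelial-like cells, were at least 37.1-fold, 20.1-fold and 79.5-fold higher against 3 counts over both libraries. OGN was not called (0.72 ± 0.387, adjusted p = 0.395), with 4.20-fold more in mural-like cells of embryo 1 and 0.747-fold as much in embryo 2.

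With cells assigned by their own markers in place of clusters, the mural-like group grew to 88 cells with a summed level of 418 CPM, and 2 of the 9 genes were called higher than in endothelial-like cells, while the number of all genes called rose from 580 to 1723. COL1A2 then had a log2 difference of -0.13 (adjusted p = 0.833), PCOLCE -0.24 (0.814) and OGN -2.48 (3.08e-06, edgeR), the last now lower in mural-like cells. With pericyte-marked mural-like cells alone, 4 of the 9 and 274 of all genes were called, and POSTN was not among them (adjusted p = 0.647).

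Among neural cells the 9 genes were rare, and POSTN was the exception. Radial glia-like cells, the stem cells of the developing brain, were compared with the 4 neuron classes, a comparison added after the data were seen. POSTN had 20.8 and 18.9 CPM in radial glia-like cells against 1.81 and 0.487 CPM in the mean of the neuron classes. Its fitted log2 difference was 4.34 ± 0.279 (adjusted p = 1.09e-30, edgeR). COL1A2 rose by 1.56 ± 0.299 (2.23e-06), PGS2 by 1.97 ± 0.359 (6.88e-07) and OGN by 2.21 ± 0.626 (0.00134), so that 4 of the 9 were called higher, where 27.7% of all genes were called higher and 31.7% lower. The fitted OGN value averages in cortical excitatory neuron-like cells, which had 0 UMIs of it. In CPM, OGN stood at 2.64 times, PGS2 at 3.64 times and COL1A2 at 2.29 times the mean of the neuron classes. COL1A1, COL3A1, COL6A3, LUM and PCOLCE were not called.

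The POSTN UMIs of radial glia-like cells, 189 in all, were spread over 76 of 2107 cells, 44 of embryo 1 and 32 of embryo 2. Of these cells 35 had at least 2 UMIs, and the highest had 13. Of the 76, 6 had a UMI of any other of the 9 genes, and 2 had one of COL1A1 or COL3A1. The cell with 13 POSTN UMIs also had 3 of COL1A2 and 1 of COL3A1. Among all 2107 cells, 139 had a UMI of any of the 9. By these counts another of the 9 genes was found in a larger share of cells with POSTN than of those without. That difference rests on 6 cells with POSTN and was not tested. The cells with POSTN made up 3.61% of radial glia-like cells at a median depth of 3922 UMIs. In erythroid-like cells the share was 0.426% at 10784 UMIs, but haemoglobin made up 84.4% of these UMIs, so the depths are not alike. Midbrain or thalamus excitatory neuron-like cells, at a median depth of 3665 UMIs near that of radial glia-like cells, had POSTN in 3 of 1722 cells. After thinning to 1000 UMIs, POSTN was detected in 1.61% of radial glia-like cells.

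Most of these UMIs, 166 of 189, lay in the larger radial glia-like cluster of 1702 cells, with 20.7 and 23.6 CPM. The smaller cluster, of 405 cells led by BCAN, VCAM1 and SPON1, had 21.3 and 2.99 CPM. Dividing cell-like cells had 6.22 and 7.03 CPM. Among neurons the highest value was 4.49 CPM in cortical excitatory neuron-like cells of embryo 1, whose class had 0 in embryo 2.

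The PGS2 and OGN calls in radial glia-like cells rested on 8 and 10 cells, that of COL1A2 on 42. Of 54 PGS2 UMIs, 28 and 12 lay in 2 cells of embryo 2, both in the smaller radial glia-like cluster and both with 0 UMIs of COL1A1 and COL3A1. The PGS2 level was 1.98 CPM in embryo 1 and 9.91 CPM in embryo 2, and the log2 difference from neurons was 0.52 without embryo 2. With cells of at least 1000 gene models, POSTN alone was called. PGS2 then had a log2 difference of -1.27 (adjusted p = 0.149, edgeR) and OGN -0.31 (0.827), while COL1A2 had 0.32 (0.516). The OGN call was also lost with at least 500 gene models (0.258) and with 30 principal components (0.296).

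Outside the fibroblast-like, mural-like and endothelial-like classes, 5 cells had UMIs of at least 4 of the 9 genes, with 59 UMIs in all. The summed level over all cells outside these classes was 15.4 and 13.1 CPM. Microglia-like cells had 34.9 and 7.01 CPM from 10 UMIs, choroid plexus epithelium-like cells 4.37 and 12.9 CPM from 4 UMIs, and erythroid-like cells 4.09 and 1.74 CPM from 46 UMIs. In choroid plexus epithelium-like cells COL6A3, LUM, PGS2, OGN, POSTN and PCOLCE had 0 UMIs in 164 cells, which allows up to 1.83% of cells with a UMI for each.

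Among neurons, COL1A2 and COL3A1 were highest in forebrain inhibitory neuron-like cells, with 10.4 and 3.48 CPM and 4.25 and 2.68 CPM. PGS2 was highest in midbrain inhibitory neuron-like cells, with 2.52 and 3.77 CPM from 24 UMIs in 22 of 3042 cells. OGN had 0 UMIs in 814 cortical excitatory neuron-like cells, and PCOLCE had 0 in midbrain or thalamus excitatory neuron-like cells. All 9 COL1A1 UMIs of the latter class came from 1 cell of embryo 2.

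Other genes of the matrix were taken from 7 lists of 107 genes, of which 99 were held and 73 tested. These lists too were chosen with earlier results of these data known. Counts and medians of the 73, here and below, are therefore a description. In fibroblast-like against vascular classes 15 of 73 were called higher and 6 lower, where 5.07% of all genes were called higher and 4.20% lower. The median log2 difference of the 73 was 1.06 against 0.0412 over all genes. Among further fibrillar collagens, 3 of 5 tested were higher, COL5A1, COL5A2 and COL11A1, which co-assemble with types I and II. COL5A1 had 96.7 and 42.3 CPM in fibroblast-like cells, 39.0 and 96.7 CPM in mural-like cells and 0 in endothelial-like cells. Its order between fibroblast-like and mural-like cells thus turned between the embryos. COL5A2 had 373 and 354 CPM in fibroblast-like cells, below the 442 and 564 CPM in mural-like cells, and was higher only than the mean that includes endothelial-like cells with 66.0 and 61.3 CPM. COL11A1 had 86.3 and 88.5 CPM in fibroblast-like cells, 26.0 and 16.1 CPM in mural-like cells, and 0 and 4.08 CPM in endothelial-like cells. Of 9 basement membrane and vessel wall collagens, 2 were higher, the chains COL4A6 and CO4A5 (COL4A5), both at 0 in endothelial-like cells. The main vascular chains COL4A1 and COL4A2 fell by 1.93 ± 0.0880 and 2.16 ± 0.219 on the log2 scale (adjusted p = 1.23e-43 and 1.88e-15, edgeR).

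The other type VI chains were also high in mural-like cells. CO6A1 (COL6A1) had 252 and 215 CPM in fibroblast-like, 624 and 645 CPM in mural-like and 203 and 77.6 CPM in endothelial-like cells, and COL6A2 had 121 and 104, 273 and 177, and 71.1 and 20.4 CPM. Neither was called between fibroblast-like and vascular classes (adjusted p = 0.541 and 0.855, edgeR), whereas COL6A3 had 0 endothelial-like UMIs. Of 5 further small leucine-rich proteoglycans tested, FMOD alone was higher in fibroblast-like cells, with 51.8 and 30.8 CPM. BGN had 44.9 and 30.8 CPM there and 90.9 and 129 CPM in mural-like cells. Of 19 collagen processing genes 1 was higher, PPIB, a prolyl isomerase of the endoplasmic reticulum, by 0.73 ± 0.109 (2.68e-08). PPIB had 1133 and 1501 CPM in fibroblast-like, 1143 and 1161 CPM in mural-like and 548 and 584 CPM in endothelial-like cells. In this comparison 5.07% of all genes were called higher, so nothing is read from the counts of 1 in 5 and 1 in 19.

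Of 14 other matrix proteins tested, 5 were higher in fibroblast-like cells, VCAN, TGFBI, FBN1, FBN2 and FBLN1, and FN1 (fibronectin) fell by 0.56 ± 0.144 on the log2 scale (adjusted p = 0.00308, edgeR). Of 8 receptors for collagens and periostin, 3 were lower and 0 higher. In this comparison 5.07% of all genes were called higher and 4.20% lower. The collagen receptor subunit ITGA1 had 24.2 and 19.2 CPM in fibroblast-like cells, 533 and 822 CPM in mural-like and 401 and 363 CPM in endothelial-like cells. ITGB1, its partner, had 535 and 500.2 CPM in fibroblast-like cells and between 1009 and 1419 CPM in the vascular classes, and ITGA2 was at 0 in fibroblast-like cells.

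Against neural classes, 36 of the 73 were called higher and 2 lower (VCAN and DDR1) in endothelial-like cells. In mural-like cells 43 were higher and 0 lower. Of all genes 16.4% were called higher and 10.0% lower in endothelial-like cells, and 11.6% and 2.79% in mural-like cells. Of the 5 small leucine-rich proteoglycans, BGN, KERA and ECM2 were higher in both. Mural-like cells exceeded endothelial-like cells in 12 of the 73, among them COL5A1, COL5A2, CO4A5, COL13A1 and CO6A1. SPARCL1 alone was lower and fell by 3.24 ± 0.208 on the log2 scale (adjusted p = 4.85e-29, edgeR). Of all genes 3.75% were called higher and 2.05% lower there.

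In radial glia-like cells against neurons, the comparison added after the data were seen, 43 of the 73 matrix genes were called higher and 1 lower. Of all genes 27.7% were called higher and 31.7% lower. The median log2 difference of the 73 was 1.72 against -0.0611 over all genes. All 5 further fibrillar collagens tested were called higher, COL2A1, COL5A1, COL5A2, COL11A1 and COL27A1, while COL1A1 and COL3A1 were not. COL2A1 had 12.1 and 12.4 CPM in radial glia-like cells and 0 UMIs in fibroblast-like cells. COL5A2 had 9.90 and 9.91 CPM and COL11A1 9.51 and 11.7 CPM in radial glia-like cells. The matrix protein SPARC, with 31.5 and 27.0 CPM there, rose by 4.78 ± 0.249 (adjusted p = 3.45e-39, edgeR), and MGP and ITGB5 rose by 5.67 ± 0.522 and 4.99 ± 0.746 (3.72e-19 and 2.58e-09). MGP had 9.11 and 9.46 CPM and ITGB5 3.37 and 3.38 CPM in radial glia-like cells. Cortical excitatory neuron-like cells had 0 UMIs of both genes, and forebrain inhibitory neuron-like cells had 0 of ITGB5. The size of the MGP and ITGB5 differences is therefore not well set by the counts. COL4A3 fell by 0.63 ± 0.125 (5.01e-06).

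The genes whose levels over the 12 classes were most like the mean of the 9 were PRRX1 (Pearson r = 0.989 on log2(CPM + 1)), FBLN2 (0.989), NT5E (0.979), NRK (0.971) and a gene model without a name (0.965), among 10703 genes with at least 50 UMIs. PRRX1, a mesenchymal transcription factor and one of the markers behind the class names, had 104 and 84.7 CPM in fibroblast-like cells. FBLN2, a matrix protein, had 34.5 and 38.5 CPM. Of the 9 themselves, COL3A1 was nearest to that mean (0.987) and POSTN farthest (0.895). Each of the 9 is part of the mean, so these values are raised and not comparable with those of the other genes. The classes share libraries, and these values are a description.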

How the data were processed

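Per the labels and the study's methods, the authors ran Cell Ranger 3.1.0 with default parameters on the TS_2.0 tree shrew assembly and deposited raw UMI counts per gene model and barcode of 1 library per embryo. Cells with at least 200 gene models were scaled to 10000 UMIs, log-transformed and clustered over 2000 variable genes, 20 principal components and 20 neighbours (leidenalg 0.10.2, resolution 0.5). The 2 clusters of fibroblast and vascular cells, 195 cells, were clustered again at resolution 1.0. A name needed at least 3 markers, each in at least 10% of the cells and 2 times the level elsewhere. The dividing list was not counted in the second round. Scrublet (scanpy 1.11.5) called 1 cell in all, so its calls were not used, and doublets were kept. In an alternative setting the 566 and 696 cells with the highest scores were left out. Among them were 12 of the 101 fibroblast-like, 5 of the 27 mural-like and 2 of the 67 endothelial-like cells. UMIs of 12 classes were summed per embryo and fitted with edgeR 4.0.16 (filterByExpr, embryo as a block). TMM factors came from 1257 genes with a mean of at least 100 CPM. The design named TMM alone, and this set was chosen after TMM over all genes gave false calls for small libraries in simulated data. The embryo number names an animal, and every library of it shares that animal, so the block follows the design. The members, gene lists and tests were chosen with earlier results of these data known. Named genes were the 9 members, from each matrix list up to 4 genes with most UMIs, in each comparison up to 3 with the largest and 3 with the smallest log2 fold change among those called, and the 5 genes most like the members. Others named were chosen after their values were seen. Exact binomial intervals (95%) and the limit of 3 counts cover counting error only. Overlaps in position between gene models were not examined, and no gene, promoter or protein sequence was used here.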

Additional observations from a re-analysis of the deposited data

Results flagged for a closer look

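The 1191 barcodes with fewer than 200 gene models, which entered no comparison, held 29 UMIs of the 9 genes in 27 barcodes among 5967338 UMIs, or 4.86 CPM. COL1A2 had 8, COL3A1 7 and OGN 4 of these UMIs, and PCOLCE had 0. They were flagged as a signal in data outside the comparisons that exceeds the limit of 3 counts.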

How the results depend on the processing

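Counts of called genes moved by over 1.5 times under 3 settings. With cells assigned by markers they were 1414 (927 as reported) for fibroblast-like against vascular classes, 2403 (1442) for mural-like against neural classes and 1723 (580) for mural-like against endothelial-like cells. With pericyte-marked mural-like cells alone they were 734 for mural-like against neural classes and 274 against endothelial-like cells. With pericyte-marked endothelial-like cells left out they were 935 (2641) for endothelial-like against neural classes and 287 for mural-like against endothelial-like cells. Fewer cells were behind the last 2 settings, and the cause of the first was not tested. Members called went to 2 (from 6) for endothelial-like against neural classes without pericyte-marked cells, to 2 (from 8) and 4 for mural-like against endothelial-like cells with assignment by markers and with pericyte-marked cells alone, and to 1 (from 4) for radial glia-like cells against neurons with at least 1000 gene models.

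The reversed log2 differences were those of COL1A2 (-0.13), OGN (-2.48) and PCOLCE (-0.24) between mural-like and endothelial-like cells assigned by markers, and of PGS2 (-1.27) and OGN (-0.31) between radial glia-like cells and neurons with at least 1000 gene models. The summed level in fibroblast-like cells was 9731 CPM with at least 1000 gene models, 11926 CPM without the highest Scrublet scores, 9754 CPM with matrix genes kept in the clustering and 13563 CPM as a mean over cells. In mural-like cells it was 3422 CPM without the highest Scrublet scores, 4093 CPM with 30 components, 4291 CPM with matrix genes kept, 418 CPM with assignment by markers, 4091 CPM without cells with fibroblast markers and 3186 CPM with pericyte-marked cells alone. In endothelial-like cells it was 611 CPM with at least 1000 gene models, 425 CPM with 30 components and with matrix genes kept, 277 CPM with assignment by markers, 179.7 CPM without pericyte-marked cells and 279.8 CPM as a mean over cells. Without either embryo these sums ranged from 10208 to 11611, 5729 to 7367 and 384 to 401 CPM.

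Scaling changed no member's call but moved the split of all genes. TMM over all genes gave 734 higher and 335 lower for fibroblast-like against vascular classes (507 and 420 as reported), 898 and 963 for mural-like against neural classes (1163 and 279; median of all genes -0.551) and 250 and 442 for mural-like against endothelial-like cells (375 and 205). RLE factors gave 292 and 302 for the last. Library totals gave 463 and 147 for it, and 1362 and 1617 for endothelial-like against neural classes (1638 and 1003; median -0.408).

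Without the replicate block, 5 members in place of 6 were called in endothelial-like cells, since POSTN missed the threshold (adjusted p = 0.0510), and the counts of called genes stayed within 1.5 times (839, 2534, 1419, 482 and 5201, in the order of the text). No mural-like class remained in the fit with at least 1000 gene models, without the highest Scrublet scores (under 10 cells in an embryo) or with the dividing list counted, so those settings gave no mural-like test. The pericyte-marked cells alone (8 and 9 cells) were fitted although they are under that minimum. With 27 mural-like and 67 endothelial-like cells, the 0 counts of COL6A3, LUM and PGS2 in the latter limit a level to 6.79 CPM over both libraries.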
